A study of Homo sapiens with 18 samples.

Results

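The genes described here are 10 regulators of the passage from G1 into S phase, namely the D-type cyclins CCND1, CCND2 and CCND3, the kinases CDK4 and CDK6, the retinoblastoma gene RB1, the transcription factors E2F1 and E2F3, and the E-type cyclins CCNE1 and CCNE2. Chromatin accessibility around them was taken from ATAC-seq, in which the Tn5 transposase inserts adapters into open chromatin, as FPKM in 1 kb windows of the hg19 genome. A window was taken when it overlapped the GENCODE span of one of the genes extended by 10 kb on each side, which gave 82 of the 89428 windows. Of these, 26 were promoter windows of the 10 genes, 9 were promoter windows of a neighbouring gene and 47 were distal windows. Windows are named by the distance of their centre from the canonical transcription start, and neighbouring windows share 100 bp of sequence.

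D-type cyclins bind CDK4 or CDK6, and the active kinases phosphorylate the RB1 protein, which then releases E2F transcription factors. The released E2Fs switch on genes for DNA replication and also CCNE1 and CCNE2, whose proteins activate CDK2 and drive further phosphorylation of RB1. In high-grade serous ovarian cancer (HGSOC) this step is often altered, with gain of CCNE1 and loss of RB1 among the known lesions.

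The samples were 6 established human ovarian cancer lines with 3 replicate libraries each, in 3 pairs in which the first line is sensitive and the second resistant to platinum, all kept in RPMI-1640 with glutamine and 10% fetal bovine serum. CP70 is a platinum-resistant derivative of A2780 made in culture, and the labels call both endometrial/ovarian. PEA1 and PEA2 came from 1 patient with HGSOC, the first taken before any platinum was given and the second at a resistant relapse. PEO1 and PEO4 came from another, both after platinum chemotherapy and before and after clinical resistance. Each state is thus 1 line per pair, the labels give no drug treatment, and nothing in the labels says that the 3 replicates of a line were separate cultures, so that p-values measure the spread between these libraries, which may be technical.

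The libraries held 8972042 to 60495462 reads, and the share of them inside the windows of the table ran from 8.37% in an A2780 library to 40.8% in a PEO1 library. FPKM is relative to the whole library, so levels of different lines are also given scaled to the reads inside the table. The canonical promoter windows of 6 of 6 epithelial or serous marker genes were in the table, against 0 of 6 for leukocyte, endothelial and fibroblast genes. The table holds 1 set of windows for all lines. In the libraries of the A2780 pair 3 of the 6 marker windows averaged above 1 FPKM, against 6 in each of the other pairs. Over all windows tested the median change was 0.59 on the log2 scale in CP70 against A2780, 0.31 in PEA2 against PEA1 and -0.30 in PEO4 against PEO1, and changes are to be read against these shifts.

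Each resistant line was compared with its sensitive counterpart to ask where accessibility differed. Calls required a change above 2 in size on the log2(FPKM + 0.1) scale together with a limma adjusted p below 0.001. In the A2780 pair 0 of 57 tested windows of the 10 genes were called higher in CP70 and 2 were called lower (3.51%), against 0.428% and 0.369% of all windows tested. In the PEA pair 4 of 76 were called higher in PEA2 (5.26%) and 2 lower (2.63%), against 11.2% and 1.42% of all windows. In the PEO pair 0 of 69 were called higher in PEO4 and 3 lower (4.35%), against 2.72% and 5.78%. Over the tested windows of the 10 genes the median change was 0.65, -0.27 and 0.14 in the 3 pairs.

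The called windows belonged to 4 genes, CCND2, CCND3, CDK6 and CCNE1. None of them was a promoter window of the 10 genes, of which 25, 26 and 25 were tested in the 3 pairs, while over all promoter windows 0.261%, 2.06% and 1.34% were called in either direction. Of the distal windows 2 of 24, 5 of 42 and 3 of 35 were called (8.33%, 11.9% and 8.57%), against 1.35%, 17.5% and 11.3% of all distal windows. The remaining called window lay at the promoter of TIGAR, which borders CCND2. Testing was limited to windows whose libraries in a pair averaged above 1 FPKM. Without A2780 replicate 2 neither called window of the A2780 pair passed this filter, which left 0 calls. Without PEO1 replicate 1 the filter left 1 of the 3 calls of the PEO pair, and without PEO1 replicate 2 a window of CCND3 was called higher in PEO4, which made 1 in place of 0.

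**Figure D1:**
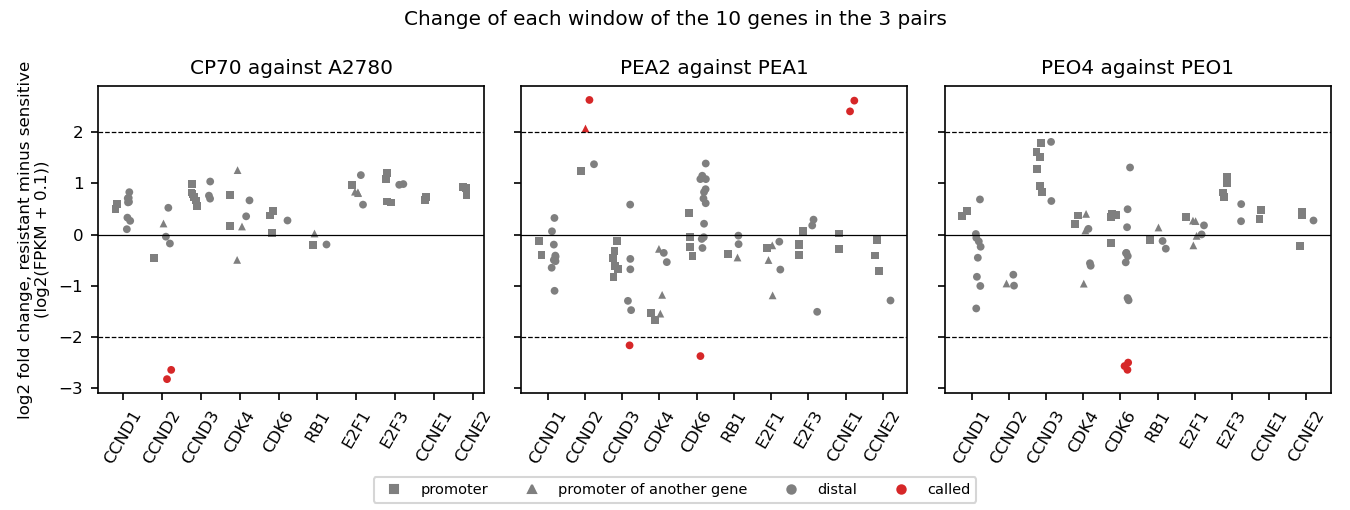
Log2 fold change (resistant minus sensitive, on log2(FPKM + 0.1)) of every tested window of the 10 genes, by gene, in the 3 pairs. Squares are promoter windows, triangles promoters of neighbouring genes and circles distal windows, red marks called windows and dashed lines mark changes of 2 in size. The red points are all away from the genes' own promoters, with 2 in CP70 below, 4 in PEA2 above and 2 below, and 3 in PEO4 below.

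The promoters of the 10 genes spanned most of the range of promoter accessibility. All windows have the same length, so FPKM can be compared between genes. Among the 12714 canonical promoters in the table, the E2F3 promoter stood between percentiles 82.0 and 98.6 in the 6 lines, CCNE1 between 77.0 and 91.2 and CCNE2 between 68.9 and 93.8. CCND1 stood between 23.1 and 38.3, RB1 between 17.5 and 48.8 and CDK6 between 9.86 and 49.5. CCND3 stood between 37.4 and 88.4 and E2F1 between 62.6 and 82.2. The CCND2 promoter ran from percentile 1.5 in PEO4 to 63.7 in A2780, and the CDK4 promoter from 13.7 in PEA2 to 78.1 in PEO4.

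Smaller changes of the promoters were counted at a looser threshold, beside the shift of all promoters. At an adjusted p below 0.05, 5 of the 10 canonical promoters were higher and 0 lower in CP70, where 43.8% of all canonical promoters were higher and 1.49% lower. In PEA2 1 was higher and 3 were lower, against 17.6% and 35.8% of all. In PEO4 7 of the 9 tested were higher and 0 lower, against 26.4% and 30.9%. The median log2 fold change was 0.61 in CP70 and -0.34 in PEA2 over the 10 promoters, and 0.38 in PEO4 over the 9 tested. Over all canonical promoters tested the medians were 0.58, -0.24 and -0.02.

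**Figure D2:**
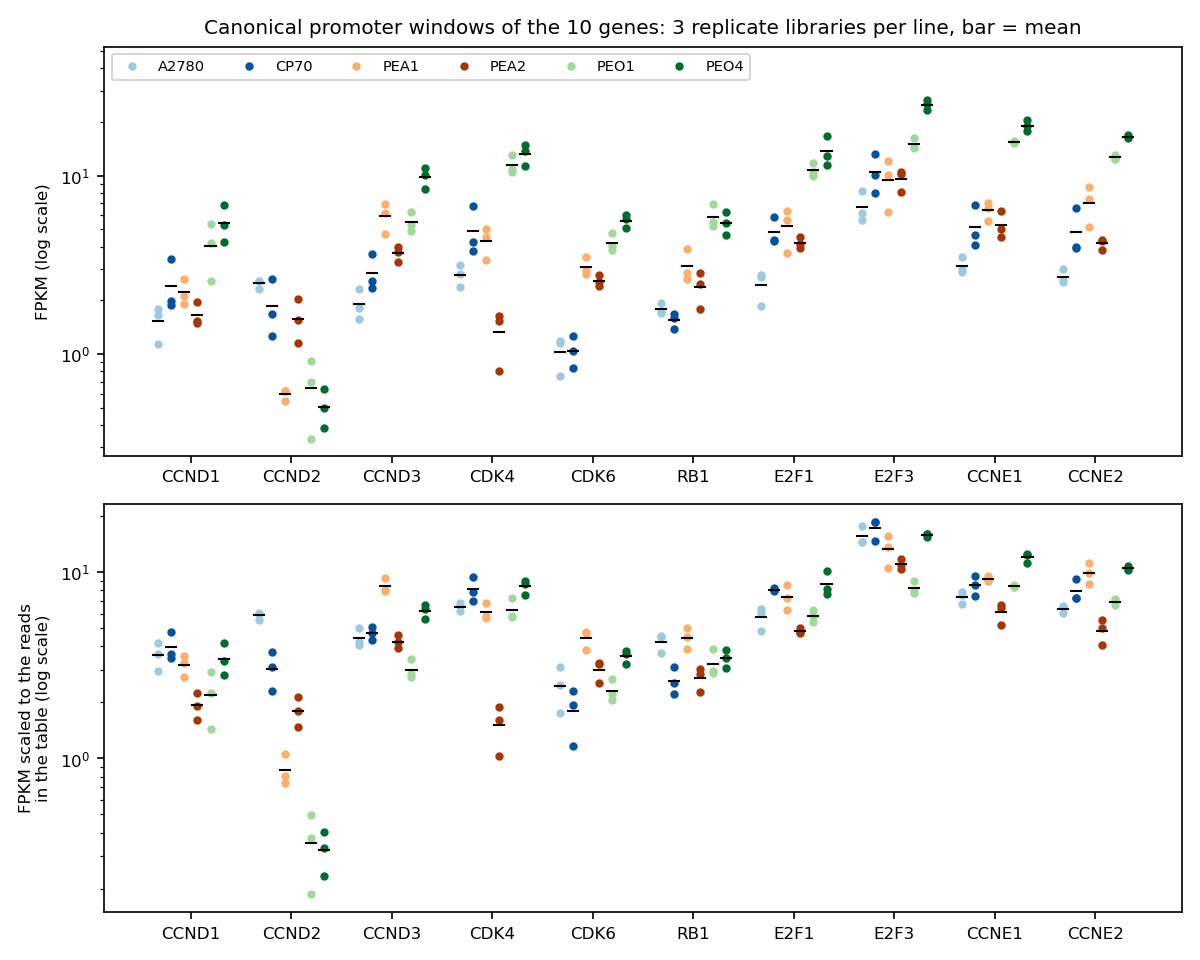
Accessibility of the canonical promoter window of each gene in the 18 libraries, as FPKM (top) and as FPKM scaled to the reads inside the table (bottom), both on log axes. Points are libraries and bars are means of 3. On the scaled axis CCND2 spans the widest range, from 0.323 in PEO4 to 5.89 in A2780, and the CDK4 promoter is at 1.51 in PEA2 and between 6.13 and 8.40 in the other lines.

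The E2F proteins bind a short DNA word that is common in promoters of cell cycle genes. The words TTTCCCGC, TTTCGCGC, TTTGCCGC and TTTGGCGC were searched on both strands of the canonical promoter windows, and 5 of the 10 genes held at least 1 (50%), against 12.1% of all 12714 canonical promoters. The matches are printed on the strand of the gene, 5′ to 3′, with 30 bases to each side and the word in capitals, to show the letters in which these promoters are alike. The E2F1 promoter held 2 words, at -17 and -30 and on opposite strands, and its stretch is centred on the nearer one. Counted from the start to the middle of the word, positions were -143 in CCND1, -21 in RB1, -49 in E2F3 and -379 in CCNE1. The sequence and coordinates are those of hg19, and a match is a description of these letters only.
CCND1, chr11:69455747-69455814, plus strand: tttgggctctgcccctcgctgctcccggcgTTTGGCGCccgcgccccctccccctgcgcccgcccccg
RB1, chr13:48877832-48877899, plus strand: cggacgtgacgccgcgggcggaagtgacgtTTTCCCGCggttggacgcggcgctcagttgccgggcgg
E2F1, chr20:32274174-32274241, minus strand: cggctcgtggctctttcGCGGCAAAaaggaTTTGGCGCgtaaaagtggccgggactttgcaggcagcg
E2F3, chr6:20402027-20402094, plus strand: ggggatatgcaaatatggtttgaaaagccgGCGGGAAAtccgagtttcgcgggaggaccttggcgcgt
CCNE1, chr19:30302485-30302552, plus strand: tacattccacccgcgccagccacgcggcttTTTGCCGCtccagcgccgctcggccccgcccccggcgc

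CCND1 encodes cyclin D1, the D-type cyclin most often raised in cancers. Its locus held 11 windows in the table, of which 9 were distal, and none of them was called in a pair. The promoter measured 1.80, 1.67 and 1.14 FPKM in A2780 and 3.41, 1.98 and 1.88 in CP70. It measured 2.63, 2.12 and 1.92 in PEA1 and 1.54, 1.5 and 1.95 in PEA2, and 5.36, 4.19 and 2.56 in PEO1 against 5.29, 6.86 and 4.23 in PEO4. The libraries of PEO1 and PEO4 overlapped, and so did those of PEA1 and PEA2.

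The CCND1 promoter rose in CP70 by 0.60 (SE 0.25, limma adjusted p = 0.0404) and in PEO4 by 0.46 (SE 0.19, adjusted p = 0.0308), and its log2 fold change in PEA2 was -0.39 (SE 0.24, adjusted p = 0.136). To set a window against its neighbourhood, the median level of the tested windows in its 5 Mb bin was subtracted in each library, and what this took from a change is called the bin shift. The shift was 0.85 in CP70 against A2780, and its removal left the promoter at -0.25. The window 2.4 kb upstream was the most accessible distal window of the locus, at 1.66 FPKM ± 0.281 (SD, n = 3) in A2780 and 9.17 ± 1.06 in PEO1. Scaled to the reads inside the table its line means lay closer together, from 2.19 in PEA2 to 5.02 in PEO1, and the window was no longer called in the comparison of the 6 lines.

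CCND2 encodes cyclin D2, and its accessible windows depended on the line. A pair of distal windows upstream of the gene, 11.1 kb (chr12:4371301-4372300) and 7.5 kb (chr12:4374901-4375900) from the canonical start, was accessible in A2780 and much less so in every other line. The window at 11.1 kb measured 1.97, 2.57 and 2.07 FPKM in the A2780 libraries and 0.152, 0.239 and 0.293 in the CP70 libraries. The window at 7.5 kb measured 2.32, 2.46 and 1.80 in A2780 and 0.303, 0.239 and 0.251 in CP70.

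All A2780 libraries lay above all CP70 libraries in both windows, and every library of the other 4 lines was below 1 FPKM in both. The means differed 9.66-fold in the window at 11.1 kb, which fell by 2.83 on the log2 scale in CP70 (SE 0.34, limma adjusted p = 2.98e-14), and 8.29-fold in the window at 7.5 kb, which fell by 2.64 (SE 0.33, adjusted p = 1.15e-13). Both were called as well with the bin shift of 0.32 removed, at -3.14 and -2.96, but neither at pseudocounts of 0.5 or 1. Neither window held the AP-1 word TGANTCA, which is searched for in distal windows below.

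At the CCND2 promoter the difference was smaller. It measured 2.58, 2.57 and 2.33 FPKM in A2780 and 2.65, 1.26 and 1.68 in CP70, with overlapping libraries, a log2 fold change of -0.46 (SE 0.26) and an adjusted p of 0.115. Scaled to the reads inside the table the promoter fell by 0.96 on the log2 scale, from 5.89 to 3.04, a difference that passed an adjusted p of 0.05 in the fit over all lines (adjusted p = 0.0112). The other lines were lower, PEA1 at 0.597 ± 0.0453 and PEA2 at 1.58 ± 0.439, PEO1 at 0.648 ± 0.291 and PEO4 at 0.507 ± 0.128 (SD, n = 3). On the deposited scale A2780, CP70 and PEA2 did not differ between neighbours in that order, and neither did PEO1, PEA1 and PEO4, while PEA2 exceeded PEO1 by 1.22 (adjusted p = 0.000125).

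At the other end of the CCND2 locus, PEA2 gained accessibility over PEA1. The window 34.8 kb downstream of the start (chr12:4417201-4418200), beyond the end of the gene, measured 0.929, 1.21 and 0.863 FPKM in PEA1 and 7.42, 5.49 and 7.23 in PEA2. It rose by 2.63 (SE 0.23, adjusted p = 1.62e-28), and the adjoining window at the promoter of TIGAR, a regulator of glycolysis, rose by 2.09 (SE 0.23). The TIGAR call held in 9 of 18 settings and was lost with edgeR, DESeq2, median centring, quantile normalization, scaling to the reads inside the table, either larger pseudocount, and without PEA2 replicate 1. In the PEO pair the window at 34.8 kb fell by 1.00 (SE 0.14, adjusted p = 4.19e-08), from 10.2 ± 0.179 to 5.08 ± 0.891. The CCND2 promoter rose by 1.24 in PEA2 (SE 0.29, adjusted p = 4.03e-05). The bin shift was 1.47 in the PEA pair, and with it removed the window at 34.8 kb was at 1.16 and no longer called, the TIGAR window was at 0.62 and the promoter at -0.23. The call at 34.8 kb was also lost at a pseudocount of 1.

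**Figure D3:**
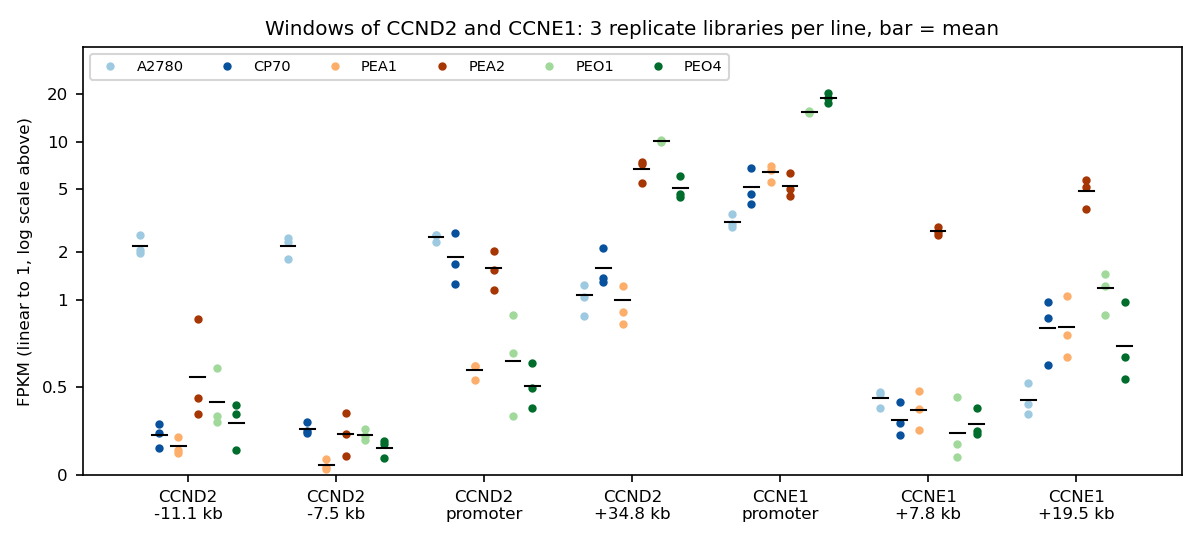
FPKM of the called windows and the promoters of CCND2 and CCNE1 in the 18 libraries, on an axis that is linear to 1 FPKM and logarithmic above. Points are libraries and bars are means of 3. The windows 11.1 and 7.5 kb upstream of CCND2 are high in the A2780 libraries alone, and those 7.8 and 19.5 kb downstream of the CCNE1 start are highest in PEA2.

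CCND3 encodes cyclin D3 and has start sites in separate places, the canonical one and others in windows 106.6 to 109.3 kb upstream, of which those at 108.4 and 109.3 kb also hold the promoter of TAF8. The canonical promoter measured 6.27, 5.32 and 4.90 FPKM in PEO1 and 10.1, 11 and 8.47 in PEO4. The window 109.3 kb upstream measured 1.32, 2.01 and 1.56 in PEO1 and 5.70, 6.19 and 5.48 in PEO4. In both windows every PEO4 library exceeded every PEO1 library.

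All 6 CCND3 promoter windows were higher in PEO4, by 0.83 to 1.79 on the log2 scale. The canonical promoter rose by 0.83 (SE 0.14, limma adjusted p = 1.49e-06) and the window at 109.3 kb by 1.79 (SE 0.18, adjusted p = 9.77e-11). The distal window 103.9 kb upstream rose by 1.81 (SE 0.22), from 1.10 ± 0.347 to 4.02 ± 0.551 FPKM (SD, n = 3). None reached the fold required for a call, but edgeR on the recovered reads, DESeq2, median centring and quantile normalization each called the windows at 109.3 and 103.9 kb, at 2.12 to 2.18. The bin shift was 1.07, and with it removed the upstream windows were at 0.72 and 0.74 and the canonical promoter at -0.24.

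Downstream of the canonical CCND3 start the called change was in the PEA pair. The window at 2.3 kb (chr6:41906701-41907700) measured 3.01, 3.02 and 2.35 FPKM in PEA1 and 0.550, 0.462 and 0.621 in PEA2, and the libraries did not overlap. It fell by 2.17 (SE 0.26, adjusted p = 9.25e-16) and was at -1.89 and no longer called with the bin shift of -0.27 removed, and the call was also lost at pseudocounts of 0.5 and 1. The window at 1.4 kb fell by 1.48 (SE 0.24, adjusted p = 3.31e-09) and the canonical promoter by 0.67 (SE 0.23, adjusted p = 0.00646). In the other pairs these downstream windows were higher in the resistant line. The ratio of means at 1.4 kb was 1.62 in PEO4 and 1.77 in CP70, and the PEO4 rise turned direction with bin medians removed. At 2.3 kb, below the filter in both pairs, the ratio was 3.35 in PEO4 and 1.46 in CP70. The distal window 25.6 kb upstream of the canonical start was higher in PEA1 and PEA2, at 1.93 ± 0.332 and 2.92 ± 0.268 FPKM, than in the 4 other lines, where means ran from 0.211 in CP70 to 1.18 in PEO4.

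CDK4 encodes a kinase partner of the D-type cyclins, and its canonical promoter had the largest change in size among the 10 in the 3 pairs. The promoter window (chr12:58145401-58146400) measured 5.06, 4.52 and 3.36 FPKM in PEA1 and 1.54, 0.809 and 1.64 in PEA2. In the other pairs it measured 2.82, 3.15 and 2.38 in A2780 against 6.74, 4.25 and 3.81 in CP70, and 10.5, 10.9 and 13 in PEO1 against 13.7, 14.8 and 11.4 in PEO4. Every PEA2 library lay below every library of the other 5 lines.

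The CDK4 promoter fell 3.24-fold in PEA2, by 1.66 on the log2 scale (SE 0.23, limma adjusted p = 5.32e-12), and the window 0.7 kb upstream fell by 1.53 (SE 0.25, adjusted p = 4.26e-09). Neither reached the fold for a call on the deposited scale, whereas edgeR, DESeq2 and quantile normalization called both and median centring called the canonical window, which was at -2.01 to -2.11 in these 4 fits. Nearby promoters were lower as well, with -1.55 at TSPAN31 (adjusted p = 2.19e-09) and -1.18 at MARCHF9 (adjusted p = 6.05e-06), while CYP27B1 was at -0.28 (adjusted p = 0.296). The bin shift was -0.60, and with it removed the CDK4 promoter was at -1.06.

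Scaled to the reads inside the table the CDK4 promoter ran from 6.13 in PEA1 to 8.40 in PEO4 in 5 lines. None of the neighbours among these 5 in that order differed at an adjusted p of 0.05. Contrasts of lines further apart are not given here, so the 5 are not shown to be level. In the fits of the pairs after this scaling, PEO4 was above PEO1 by 0.42 on the log2 scale and CP70 above A2780 by 0.29. PEA2 stood apart at 1.51, below PEA1 by 1.98 on the log2 scale (adjusted p = 4.40e-12). The tested distal windows of CDK4 were at -0.36 and -0.54 in PEA2 and between -0.61 and 0.11 in PEO4. In CP70 the promoter rose by 0.77 (SE 0.29, adjusted p = 0.0219), close to the bin shift of 0.69.

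**Figure D4:**
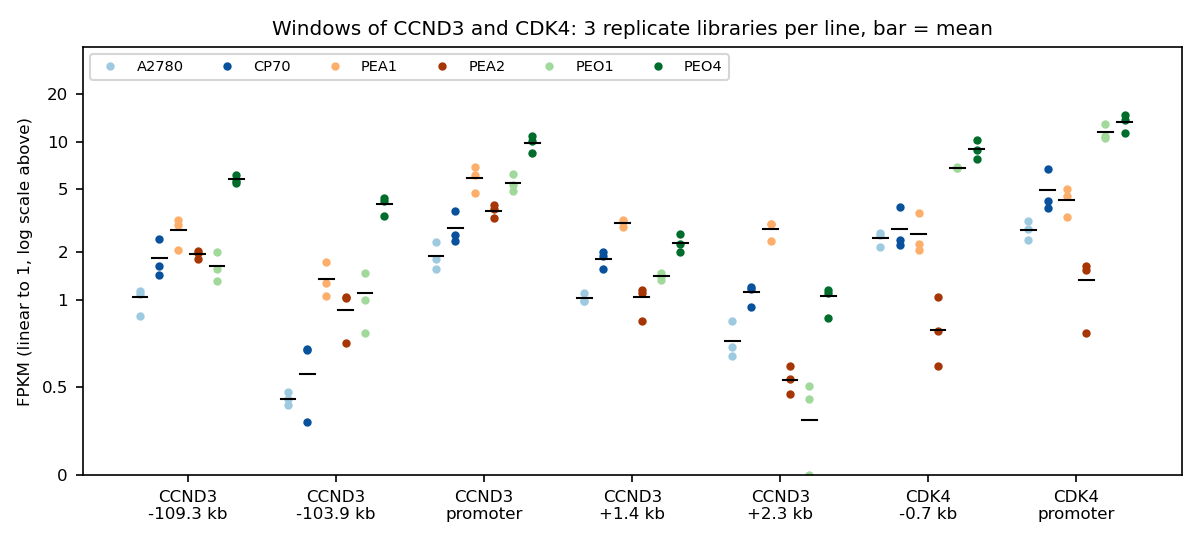
FPKM of windows of CCND3 and CDK4 in the 18 libraries, on an axis that is linear to 1 FPKM and logarithmic above. Points are libraries and bars are means of 3. The windows 109.3 and 103.9 kb upstream of CCND3 are highest in PEO4, the window 2.3 kb into the gene is highest in PEA1, and both CDK4 windows are lowest in PEA2.

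CDK6, the other kinase partner of the D-type cyclins, had 18 windows in the table, more than any other of the 10 genes, and 14 of them were distal windows inside the gene. Its promoter showed no call. It measured 0.750, 1.15 and 1.19 FPKM in A2780 and 0.833, 1.26 and 1.05 in CP70, 3.49, 2.96 and 2.83 in PEA1 and 2.42, 2.54 and 2.80 in PEA2, and 4.05, 3.84 and 4.79 in PEO1 and 5.12, 6 and 5.73 in PEO4. Its log2 fold changes were 0.03 (SE 0.28, adjusted p = 0.933), -0.25 (SE 0.23, adjusted p = 0.346) and 0.40 (SE 0.15, adjusted p = 0.0171), so that only the rise in PEO4 passed 0.05.

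The called windows of CDK6 lay far inside the gene. In PEO4 3 of them fell. The window at 118.2 kb (chr7:92347201-92348200) measured 1.82, 3.58 and 2.90 FPKM in PEO1 and 0.349, 0.288 and 0.399 in PEO4, a fall of 2.64 (SE 0.32, limma adjusted p = 3.53e-09). The window at 194.7 kb (chr7:92270701-92271700) measured 2.33, 2.01 and 1.78 in PEO1 and 0.291, 0.288 and 0.249 in PEO4, a fall of 2.5 (SE 0.35, adjusted p = 7.16e-08). The window at 228.0 kb (chr7:92237401-92238400) measured 2.93, 2.01 and 1.89 in PEO1 and 0.349, 0.240 and 0.299 in PEO4, a fall of 2.57 (SE 0.34, adjusted p = 2.44e-08).

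In each of the 3 windows the PEO4 libraries were several-fold below the PEO1 libraries, with ratios of means of 8.01, 7.39 and 7.70. All 3 were called with the bin shift of -0.30 removed as well, at -2.34, -2.20 and -2.27, but none at pseudocounts of 0.5 or 1. The window at 194.7 kb was not tested without PEO1 replicate 1 or 2, nor that at 228.0 kb without replicate 1. The same windows did not fall in PEA2. The window at 118.2 kb rose there by 0.89 (SE 0.24, adjusted p = 0.000467), the window at 194.7 kb was at 0.21 (SE 0.24, adjusted p = 0.453), and the window at 228.0 kb was below the filter of that pair, at 0.163 ± 0.1 in PEA1 and 0.953 ± 0.144 in PEA2 (SD, n = 3).

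Accessibility of the gene did not fall throughout in PEO4. The distal window at 72.3 kb (chr7:92393101-92394100), the most variable of CDK6 across the lines, measured 5.16, 3.66 and 3.57 FPKM in PEO1 and 10.6, 10.9 and 9.22 in PEO4, and rose by 1.31 (SE 0.14, adjusted p = 5.30e-10). It measured 0.329 ± 0.0581 in A2780, 0.283 ± 0.202 in CP70, 1.10 ± 0.224 in PEA1 and 2.03 ± 0.408 in PEA2. The range of its line means was 4.92 on the log2 scale and 3.70 after scaling to the reads inside the table.

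In PEA2 the called window of CDK6 was another one, 196.5 kb into the gene (chr7:92268901-92269900). It measured 2.40, 2.06 and 1.29 FPKM in PEA1 and 0.165, 0.347 and 0.355 in PEA2, a fall of 2.38 (SE 0.32, adjusted p = 5.49e-13), and was at -2.92 with the bin shift of 0.54 removed, but was not called at pseudocounts of 0.5 or 1. It was low in the other lines too, with means from 0.1 in PEO1 to 0.433 in A2780, so that the PEA1 libraries were the highest of the 18. Without PEA1 replicate 1 or 2 the window no longer passed the filter of 1 FPKM.

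In A2780 and CP70 many distal windows of CDK6 were near the bottom of the range. In 6 of the 11 distal windows with a mean above 1 FPKM all A2780 and CP70 libraries lay below all libraries of the other 4 lines, against 23.0% of all such distal windows. On the scale of the reads inside the table this held for 2 of 11, against 7.34%. This comparison was chosen after the values were seen. Over the 14 distal windows the A2780 libraries averaged 0.504 FPKM ± 0.0986 and the CP70 libraries 0.488 ± 0.0460, PEA1 1.21 ± 0.298 and PEA2 1.69 ± 0.149, and PEO1 2.80 ± 0.186 and PEO4 2.40 ± 0.0972 (SD, n = 3). Scaled to the reads inside the table these averages were 1.18 and 0.820, 1.71 and 1.95, and 1.53 and 1.52.

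**Figure D5:**
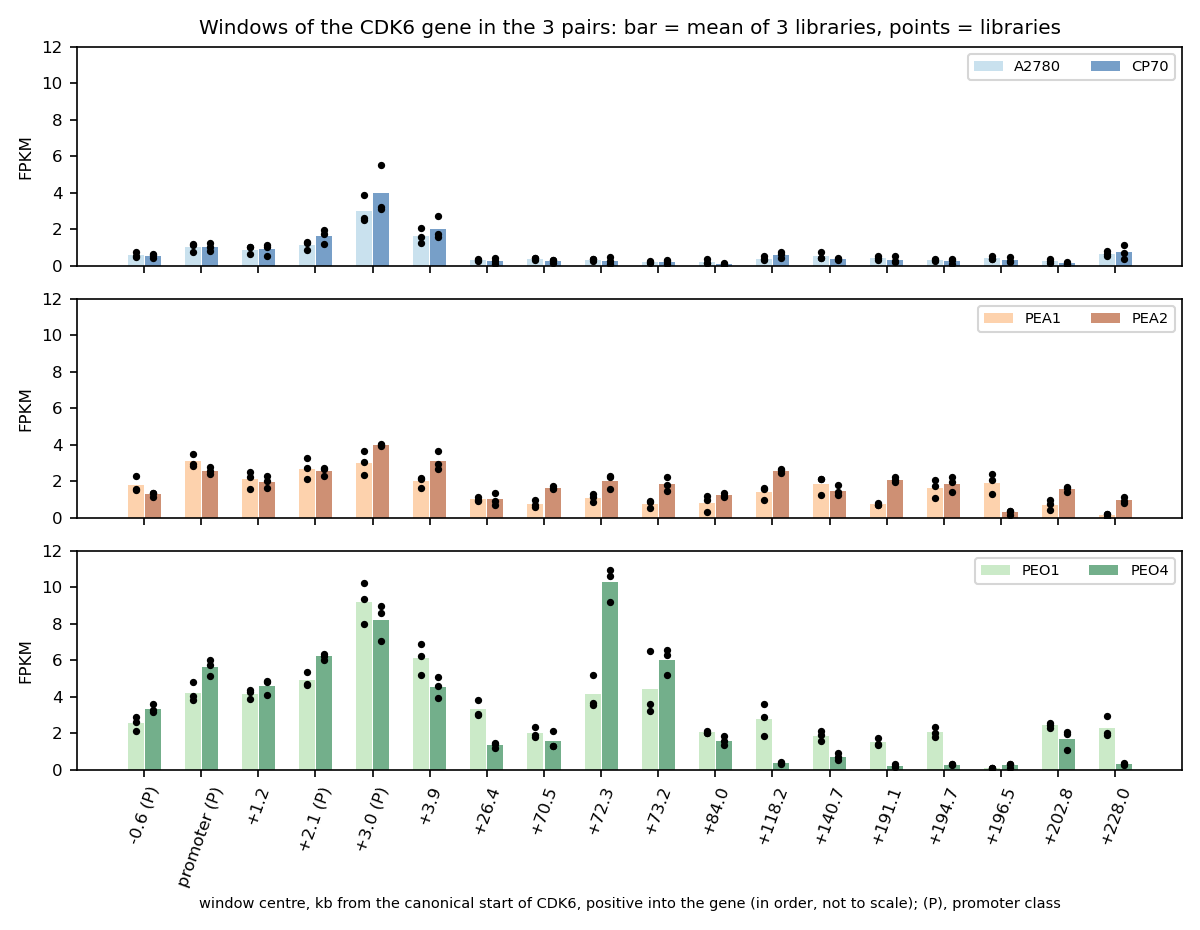
FPKM of the 18 windows of CDK6 in the 3 pairs, in order of their distance from the canonical start (kb, positive into the gene, not to scale), with P marking windows of the promoter class. Bars are means of 3 libraries and points are libraries. PEO4 lacks most of the PEO1 signal at 118.2, 194.7 and 228.0 kb and exceeds it at 72.3 kb, PEA2 lacks the PEA1 signal at 196.5 kb, and A2780 and CP70 are low beyond 26.4 kb.

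AP-1 is a family of transcription factors that bind many distal elements, and its word TGANTCA reads the same on both strands. It was found in 8 of the 14 distal windows of CDK6 (57.1%), in 16 of the 47 distal windows of all 10 genes (34.0%) and in 45.6% of the 67034 distal windows of the table. Of the windows called in PEO4, those at 118.2 and 194.7 kb held it and that at 228.0 kb did not. The window at 196.5 kb, called in PEA2, did not hold it, and the window at 72.3 kb did. The matches in the windows named above are printed on the strand of the gene, 5′ to 3′, with the word in capitals. The stretch at 194.7 kb is short because the word lies at the edge of its window.
CDK6 72.3 kb, chr7:92393235-92393301, minus strand: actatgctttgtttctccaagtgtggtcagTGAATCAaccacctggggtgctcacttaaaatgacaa
CDK6 118.2 kb, chr7:92348131-92348197, minus strand: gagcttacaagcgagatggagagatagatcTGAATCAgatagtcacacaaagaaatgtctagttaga
CDK6 194.7 kb, chr7:92271663-92271700, minus strand: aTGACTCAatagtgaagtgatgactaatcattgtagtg

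RB1 encodes the pocket protein that the cyclin-dependent kinases inactivate. Its GENCODE span is 296 kb, but 4 windows of it were in the table. They were the promoter, the distal window next to it, a distal window 228.4 kb from the start, and a window at the promoter of RCBTB2. The last 2 adjoin each other, so the window at 228.4 kb may belong to RCBTB2 rather than to RB1. The RB1 promoter measured 1.94, 1.69 and 1.75 FPKM in A2780 and 1.59, 1.38 and 1.68 in CP70. It measured 2.85, 3.89 and 2.64 in PEA1 and 2.86, 1.79 and 2.48 in PEA2, and 5.26, 5.50 and 6.91 in PEO1 and 5.46, 6.29 and 4.63 in PEO4.

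On the deposited scale no RB1 window differed within a pair at an adjusted p of 0.05. The promoter log2 fold changes were -0.20 (SE 0.25, limma adjusted p = 0.478), -0.39 (SE 0.23, adjusted p = 0.130) and -0.11 (SE 0.15, adjusted p = 0.534). The distal window at 228.4 kb was at -0.18, -0.02 and -0.28. Scaled to the reads inside the table the promoter ran from 2.62 in CP70 to 4.46 in PEA1, and no neighbouring lines in that order differed at an adjusted p of 0.05. Contrasts of lines further apart in that order are not given here, so the promoter is not shown to be level across the lines. Within the pairs the log2 fold changes on this scale were larger in 2 pairs, at -0.68 in CP70 and -0.69 in PEA2, and 0.10 in PEO4. Adjusted p-values of these scaled changes are not given here.

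E2F1 and E2F3 encode activating E2F factors. The E2F1 promoter measured 2.72, 2.77 and 1.87 FPKM in A2780 and 5.91, 4.37 and 4.31 in CP70, with every CP70 library above every A2780 library. It rose by 0.97 in CP70 (SE 0.29, limma adjusted p = 0.00393), against a bin shift of 0.66, and by 0.34 in PEO4 (SE 0.12, adjusted p = 0.0143), from 10.7 ± 0.956 to 13.7 ± 2.64 (SD, n = 3). In PEA2 it was at -0.27 (SE 0.23, adjusted p = 0.295). The distal window 0.6 kb into the gene rose by 1.16 in CP70 (SE 0.27, adjusted p = 0.00019). The 4 windows at the promoters of its neighbours NECAB3 and ACTL10 were not called in any pair.

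E2F3 had the most accessible canonical promoter of the 10 genes in each line except PEO1, where that of CCNE1 was higher. It measured 6.22, 8.22 and 5.62 FPKM in A2780 against 13.3, 10.1 and 8 in CP70. It measured 10.1, 12.1 and 6.23 in PEA1 against 10.4, 8.15 and 10.3 in PEA2, and 16.4, 14.5 and 14.4 in PEO1 against 25.4, 26.5 and 23.3 in PEO4. Within the pairs, the A2780 and CP70 libraries and the PEA1 and PEA2 libraries overlapped and those of PEO1 and PEO4 did not.

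The E2F3 promoter rose by 0.73 in PEO4 (SE 0.10, limma adjusted p = 5.17e-08), and the promoter windows 0.5, 1.4 and 2.3 kb into the gene rose by 0.82, 1.01 and 1.13. The bin shift was 0.57 there, and with it removed the 4 windows were at 0.16 to 0.56. In CP70 the canonical promoter was at 0.63 (SE 0.34, adjusted p = 0.103) and the window at 1.4 kb at 1.20 (SE 0.31, adjusted p = 0.00117). In PEA2 the canonical promoter was at 0.07 (SE 0.24, adjusted p = 0.816). Deep in the gene, the window at 24.8 kb was highest in the PEA lines, at 2.66, 3.49 and 1.68 FPKM in PEA1 and 0.934, 0.809 and 0.710 in PEA2, a fall of 1.51 (SE 0.25, adjusted p = 7.43e-09), against means of 0.0919 to 0.369 in the other 4 lines. It passed the call in PEA2 with edgeR, DESeq2 and quantile normalization, at -2.01 to -2.11.

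CCNE1 encodes cyclin E1. Its promoter was among the more accessible ones, and it measured 2.89, 3.49 and 3.01 FPKM in A2780 and 6.82, 4.07 and 4.65 in CP70, 6.63, 7.07 and 5.61 in PEA1 and 6.32, 5.03 and 4.53 in PEA2, and 15.4, 15.7 and 15.3 in PEO1 and 17.7, 20.5 and 19.0 in PEO4. It rose by 0.68 in CP70 (SE 0.29, limma adjusted p = 0.0443) and by 0.30 in PEO4 (SE 0.10, adjusted p = 0.00886), and was at -0.29 in PEA2 (SE 0.23, adjusted p = 0.273). The rise in CP70 was close to the bin shift of 0.61, while the bin shift in the PEO pair was -0.34 and its removal left the promoter at 0.64.

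Away from the promoter, both distal windows of CCNE1 in the table opened in PEA2. The window at 7.8 kb, inside the gene (chr19:30310201-30311200), measured 0.256, 0.374 and 0.479 FPKM in PEA1 and 2.58, 2.89 and 2.71 in PEA2. The window at 19.5 kb, beyond its end (chr19:30321901-30322900), measured 0.801, 1.06 and 0.671 in PEA1 and 5.77, 3.76 and 5.19 in PEA2. In both, each PEA2 library was above every library of the other 5 lines.

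The ratio of the PEA means was 7.37 at 7.8 kb, a rise of 2.62 (SE 0.28, limma adjusted p = 8.71e-20), and 5.81 at 19.5 kb, a rise of 2.41 (SE 0.24, adjusted p = 4.48e-23). Both were called as well with the bin shift of 0.18 removed, at 2.44 and 2.23, and on the scale of the reads inside the table, at 2.39 and 2.14, but neither at pseudocounts of 0.5 or 1. In the other pairs both windows were below the filter of 1 FPKM, with means from 0.240 to 1.19. Both held the AP-1 word, which is printed on the plus strand, that of the gene, in capitals.
CCNE1 7.8 kb, chr19:30311074-30311140, plus strand: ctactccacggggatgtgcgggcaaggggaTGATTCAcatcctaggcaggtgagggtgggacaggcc
CCNE1 19.5 kb, chr19:30322769-30322835, plus strand: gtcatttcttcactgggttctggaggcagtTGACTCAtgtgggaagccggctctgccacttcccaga

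CCNE2 encodes cyclin E2, and its promoter windows are shared in part with NDUFAF6. The canonical promoter measured 2.60, 3 and 2.55 FPKM in A2780 and 6.59, 3.95 and 3.98 in CP70, 7.37, 8.66 and 5.13 in PEA1 and 3.85, 4.34 and 4.35 in PEA2, and 13.2, 12.5 and 12.5 in PEO1 and 16.5, 17.0 and 16.2 in PEO4. In each pair the libraries of the 2 lines did not overlap. The promoter rose by 0.77 in CP70 (SE 0.29, limma adjusted p = 0.0204) and by 0.38 in PEO4 (SE 0.10, adjusted p = 0.00146) and fell by 0.71 in PEA2 (SE 0.23, adjusted p = 0.00372). With bin shifts removed it was at 0.20 in CP70, 0.37 in PEO4 and -1.12 in PEA2.

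The distal window of CCNE2, 1.1 kb into the gene, fell by 1.27 in PEA2 (SE 0.26, limma adjusted p = 2.04e-06), from 2.18 ± 0.521 to 0.832 ± 0.137 FPKM (SD, n = 3), against a bin shift of 0.41.

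Across the 6 lines a window was called when its highest and lowest line means differed by more than 2 on the log2 scale at a limma adjusted p below 0.001. This held for 49 of the 75 tested windows of the 10 genes (65.3%), against 71.4% of all windows. The count fell to 25 on the scale of the reads inside the table and to 16 with bin shifts removed. Shares of all windows at these 2 settings are not given here, so the falls are not particular to these genes. The promoter most like that of CCND2 over the 6 line means was that of C11orf96 (Pearson r = 0.96), and 1 of 12588 promoters was above 0.95. For the other 9 genes 205 to 2662 promoters exceeded 0.95, led by MRPS24 for CCND1, RIPK4 for CCND3, EEIG2 for CDK4, HAS2 for CDK6, ATP8B1 for RB1, RPN1 for E2F1, LYRM4 for E2F3, BRIP1 for CCNE1 and FLVCR2 for CCNE2. These correlations rest on 6 points that share the difference in reads inside the table between lines.

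The changes were also compared between pairs, by the difference of the log2 fold changes. The PEA and A2780 pairs differed in 5 of 67 windows tested (7.46%), against 12.8% of all windows. The PEO and A2780 pairs differed in 2 of 67 (2.99%), against 8.12%, and the PEA and PEO pairs in 14 of 73 (19.2%), against 26.6%. The comparisons share pairs, so their counts are not independent. The CDK4 promoter was among those of the first comparison, at -2.43 (SE 0.35, limma adjusted p = 2.03e-09) for PEA2 against CP70.

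With the 3 pairs as replicates of resistance, 0 of 75 windows were called between resistant and sensitive lines by limma on the line means. The share called over all windows was 0% too, so with 1 mean per line the test could not set the 10 genes apart. At an unadjusted p below 0.05 the count was 0, and the share of all windows at that threshold is not given here. Changes of the 10 genes ran from -0.88 to 0.86 on the log2 scale in that comparison. edgeR and DESeq2 were not run for this comparison of line means.

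Partners of the 10 genes were looked up in the same way by their canonical promoters. Of 21 further G1/S regulators, which included CDK2, the CDK inhibitors, the other E2F and pocket protein genes, CDC25A, SKP2 and FBXW7, all 21 were in the table. On the deposited scale 0 of 21 were called in CP70, 0 of 21 in PEA2 and 0 of 19 in PEO4. CDKN2A and CDKN2B were below the filter in the PEO pair, CDKN2A at 0.0873 FPKM ± 0.151 in PEO1 and 0 in each PEO4 library, and CDKN2B at 0 in each PEO1 library and 0.0194 ± 0.0336 in PEO4 (SD, n = 3). At an adjusted p below 0.05, 7 were higher and 0 lower in CP70, 3 higher and 10 lower in PEA2, and 4 higher and 4 lower in PEO4, with medians of 0.46, -0.34 and -0.04 on the log2 scale. Over all canonical promoters, CP70 had 43.8% higher and 1.49% lower, PEA2 had 17.6% higher and 35.8% lower, and PEO4 had 26.4% higher and 30.9% lower. The 2 with the largest changes in PEA2 were FBXW7, which encodes the ubiquitin ligase subunit that marks cyclin E for degradation, with a fall of 1.71 (SE 0.23, limma adjusted p = 1.54e-12), and E2F2, with a fall of 1.19 (SE 0.26, adjusted p = 1.85e-05). In PEO4 they were CDKN1A, an inhibitor of cyclin-dependent kinases, with a rise of 1.56 (SE 0.16, adjusted p = 1.02e-10), and TFDP2, an E2F dimerization partner, with a fall of 0.94 (SE 0.11, adjusted p = 4.05e-09). In CP70 they were CDKN2A, an inhibitor of CDK4 and CDK6, with a rise of 1.01 (SE 0.25, adjusted p = 0.000683), and E2F2, with a rise of 0.95 (SE 0.26, adjusted p = 0.00167). With bin shifts removed FBXW7 was at -0.65 and E2F2 at -0.31 in PEA2, CDKN1A at 0.77 and TFDP2 at 0.10 in PEO4, and CDKN2A at 0.44 and E2F2 at 0.46 in CP70, so that TFDP2 turned direction. Of the regulators past the adjusted p, 1 of 7 in CP70, 3 of 13 in PEA2 and 3 of 8 in PEO4 turned direction in this way. The share of all canonical promoters that turned is not given here, so these counts are not a trait of the regulators.

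Of 21 E2F target genes of DNA replication, 21 were in the table and 0 were called in any pair. At an adjusted p below 0.05, 7 were higher and 0 lower in CP70, 2 higher and 7 lower in PEA2, and 5 higher and 4 lower in PEO4, with medians of 0.53, -0.33 and -0.04, against the shares of all canonical promoters just given. The largest changes in PEA2 were at MCM10, a replication initiation factor, with a fall of 1.32 (SE 0.23, limma adjusted p = 2.64e-08), and at TYMS, thymidylate synthase, with a fall of 1.22 (SE 0.23, adjusted p = 3.05e-07). In PEO4 PCNA, the sliding clamp of DNA polymerases, fell by 0.97 (SE 0.12, adjusted p = 4.07e-09), and TK1, thymidine kinase, rose by 0.87 (SE 0.10, adjusted p = 5.52e-10). In CP70 MCM4 and CDC45, parts of the replicative helicase, rose by 0.89 (SE 0.31, adjusted p = 0.0145) and 0.83 (SE 0.28, adjusted p = 0.00949). With bin shifts removed MCM10 was at 0.010 and TYMS at -0.41 in PEA2, PCNA at 0.53 and TK1 at 0.32 in PEO4, and MCM4 at 0.44 and CDC45 at 0.049 in CP70, so that MCM10 and PCNA turned direction. In all, 2 of 7 targets past the adjusted p turned direction in CP70, 2 of 9 in PEA2 and 2 of 9 in PEO4, again without the share of all canonical promoters.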

How the data were processed

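ATAC-seq was measured in 18 libraries of 6 cell lines. Per the labels and the study's methods, the authors aligned reads to hg19 with Bowtie2, marked duplicates with Picard, counted reads in 1 kb windows with featureCounts of Rsubread and deposited FPKM made with edgeR, with tool versions not given in the sources used here. All windows are 1 kb, so the deposited FPKM equals RPM, reads relative to the whole library, and whole reads were recovered from it in 100% of values within 0.01 of a whole number, which gave the read totals. Counting error limits low windows, since 1 read is worth 0.0165 to 0.111 FPKM.

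Windows start every 900 bp and were placed on GENCODE release 44 (GRCh37), with promoters taken from 1 kb upstream to 100 bp downstream of a start. In R 4.3.3, log2(FPKM + 0.1) was fitted with limma 3.58.1 (trend, two-sided, Benjamini-Hochberg adjustment over all windows tested) for windows averaging above 1 FPKM in the libraries fitted. Fold changes on this scale understate changes of low windows. Each pair was fitted on its own 6 libraries, the 6 lines on 18, differences between pairs on 12, and resistance on line means. edgeR 4.0.16, DESeq2 1.42.0 and voom were run on the recovered reads of 17 libraries, leaving out A2780 replicate 1, whose smallest value stood for 2 reads, and other scalings, filters, pseudocounts, flanks and leaving out each replicate were tried. Bin medians were subtracted per library in 5 Mb bins, with the median of all windows used for bins under 20 windows, and a bin shift is what this took from a change.

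For each gene the canonical promoter, the distal windows with the highest mean and with the largest range over lines, and called windows with separated libraries (at most 2 per pair and direction) were named. The other windows named were chosen after their values were seen. The members and gene lists were chosen with earlier results of these data known. No deposited sample column was left out.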

Additional observations from a re-analysis of the deposited data

Results flagged for a closer look

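Among the windows named by rule, the change within a pair differed between pairs in 10 cases. The test was limma on the difference between the changes in 12 libraries, with Benjamini-Hochberg adjustment. Some of these windows were named because they were called in a pair, so the cases are a selection from the same values. The counts over all windows of the 10 genes, given above, are larger in each comparison. The change in PEA2 exceeded that in CP70 at the CCND2 window 34.8 kb from the start by 2.11 (SE 0.34, adjusted p = 7.86e-08). It was below that in CP70 at the CCND3 windows at 1.4 and 2.3 kb, by -2.24 (SE 0.34, adjusted p = 1.51e-08) and -2.66 (SE 0.37, adjusted p = 1.02e-09), and at the CDK4 promoter, by -2.43 (SE 0.35, adjusted p = 2.03e-09). The change in PEO4 was below that in CP70 at the CDK6 window at 118.2 kb, by -3.17 (SE 0.43, adjusted p = 3.51e-07).

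The change in PEA2 exceeded that in PEO4 at the CCND2 window at 34.8 kb by 3.63 (SE 0.26, adjusted p = 3.45e-16), at the CCNE1 window at 19.5 kb by 3.05 (SE 0.37, adjusted p = 8.20e-10) and at the CDK6 window at 118.2 kb by 3.53 (SE 0.37, adjusted p = 1.67e-11). It was below that in PEO4 at the CCND3 windows at 1.4 and 2.3 kb, by -2.13 (SE 0.31, adjusted p = 6.71e-08) and -4.01 (SE 0.54, adjusted p = 1.46e-08). The share of reads inside the table also differed between the lines, and its part in these differences was not tested.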

How the results depend on the processing

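Counts of called windows moved as follows, and the cause was not tested except where a setting tests fewer windows. Shares of all windows at these settings are not given, so the moves are not particular to the 10 genes. CP70 lower (2) became 0 with a flank of 0 kb, a minimum of 5 FPKM, or pseudocounts of 0.5 or 1, and CP70 higher (0) became 5 with thresholds of 1 and 0.05. PEA2 higher (4) became 2 with bin medians removed or an upper depth limit, 1 with a flank of 0 kb or a pseudocount of 0.5, 0 with a minimum of 5 FPKM or a pseudocount of 1, and 10 with the looser thresholds. PEA2 lower (2) became 1 with bin medians removed, 5 with edgeR or DESeq2, 7 with quantile normalization, 0 with the minimum of 5 FPKM or either pseudocount, and 12 with the looser thresholds. PEO4 higher (0) became 2 with edgeR, DESeq2, median centring or quantile normalization and 8 with the looser thresholds. PEO4 lower (3) became 0 with the minimum of 5 FPKM or either pseudocount, and 7 with the looser thresholds.

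The 6 lines (49) gave 16 with bin medians removed, 28 with edgeR, 25 with median centring or scaling to the reads in the table, 22 with quantile normalization, 7 with the minimum of 5 FPKM, 31 and 16 with pseudocounts of 0.5 and 1, and 75 with the looser thresholds. For the difference of the PEA and A2780 pairs (5), the counts were 0 with bin medians removed, the minimum of 5 FPKM or a pseudocount of 1, 2 with a pseudocount of 0.5, 3 with an upper depth limit, 10 with no filter and 37 with the looser thresholds. For the PEO and A2780 pairs (2), they were 1 with bin medians removed, a flank of 0 kb, a pseudocount of 0.5, quantile normalization or scaling to the reads in the table, 0 with the minimum of 5 FPKM or a pseudocount of 1, 7 with no filter and 14 with the looser thresholds. For the PEA and PEO pairs (14), they were 6 with bin medians removed or a pseudocount of 0.5, 23 with median centring, 1 with the minimum of 5 FPKM, 4 with a pseudocount of 1 and 36 with the looser thresholds.

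Leaving out 1 replicate at a time gave 0 to 0 windows higher and 0 to 2 lower in CP70 (0 without A2780 replicate 2), 3 to 4 higher and 1 to 2 lower in PEA2 (1 without PEA1 replicate 1 or 2), 0 to 1 higher (1 without PEO1 replicate 2) and 1 to 3 lower in PEO4 (1 without PEO1 replicate 1), and 46 to 52 over the 6 lines. It gave 5 to 8 for the PEA and A2780 pairs (8 without A2780 replicate 1 or CP70 replicate 1), 1 to 4 for the PEO and A2780 pairs (4 without CP70 replicate 2 and 1 without any 1 of the PEO1 replicates), 14 to 17 for the PEA and PEO pairs, and 0 to 0 for resistant against sensitive lines.

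Some smaller changes turned direction. In CP70 the CCND1 promoter was at -0.25 with bin medians removed and -0.026 with quantile normalization, the CCNE1 promoter was at -0.011 with edgeR, and with bin medians removed the CCND1 window 2.4 kb upstream was at -0.14 and the E2F1 window at 18.6 kb at -0.077. In PEA2 the CCND2 promoter was at -0.23 and the CDK4 window 3.4 kb upstream at 0.060 with bin medians removed, and the E2F3 promoter at -0.32 with edgeR and -0.30 with median centring. In PEO4 the CCND3 promoter was at -0.24 and its window at 1.4 kb at -0.41 with bin medians removed.

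With the replicate number as a block the counts were 0 and 2 in CP70, 4 and 2 in PEA2, 0 and 3 in PEO4, 49 over the 6 lines and 5, 2 and 14 for the differences between pairs, as without it. Deviations of same-numbered libraries correlated at -0.41 to 0.045, so the numbers gave no pairing. Differently numbered libraries of the A2780 pair correlated at up to 0.43 (A2780 replicate 2 with CP70 replicate 1) and down to -0.38 (A2780 replicate 2 with CP70 replicate 3). The source of these shared deviations was not tested.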
